A study of Talinum fruticosum with 36 samples.

Results

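Leaves of Talinum triangulare collected in the middle of the night after 2 days of re-watering were compared with leaves collected at the same hour on day 12 of drought. Each group had 3 libraries, so 6 of the 36 libraries of the study enter the comparison. They were chosen by their labels alone. T. triangulare is a herb that fixes carbon by the C3 pathway when watered and takes up Crassulacean acid metabolism (CAM) under drought. No genotype, line or transgene was named for any group. Every plant first had 28 days of full watering, and water was then withheld. The re-watered plants had been through 12 days of drought and then 2 days with water, and their labels give the C3 mode. The day 12 plants had been without water for 12 days, and their labels give the CAM mode. Plants sampled at midnight before drought (day 0, 3 libraries) are given last. Midnight samples were taken 6 hours into the dark phase, and midday samples 6 hours into the light phase. Each library was made from mature leaf. The file headers call the replicates biological, without saying whether a library held 1 plant or several. No group stayed dry, and none stayed watered throughout, until the day of the re-watered harvest. Re-watering, plant age and the day of sampling therefore cannot be told apart.

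In CAM plants the stomata open at night. Cytosolic phosphoenolpyruvate (PEP) carboxylase then fixes bicarbonate into a C4 acid, which is reduced to malate and stored in the vacuole. The enzyme is kept active in the dark by a kinase, and its substrate PEP comes from starch by way of glycolysis. By day the malate leaves the vacuole, malic enzymes release its CO2 behind closed stomata, and pyruvate, phosphate dikinase turns the remaining pyruvate back into PEP. In plants with facultative CAM, such as this one, drought turns the cycle on and water turns it off again.

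The authors assigned each read to its best match among Arabidopsis proteins, so every locus named here is an Arabidopsis locus that stands for its Talinum homologues, and loci of 1 family may share reads. Genome positions were not used here. The re-watered midnight libraries held 6627526 to 6714748 assigned reads and the day 12 midnight libraries 6962404 to 8578969. At this depth 3 reads correspond to 0.447 to 0.453 CPM (read counts scaled to library size, here with edgeR's TMM factors) in the re-watered libraries and to 0.35 to 0.431 CPM in the day 12 libraries, before those factors. Log2 CPM correlated between libraries at 0.985 to 0.987 within the re-watered group, at 0.980 to 0.983 within the day 12 group and at 0.892 to 0.920 across both groups. The leaf label was checked with 2 mesophyll loci. RBCS1A (AT1G67090), a small subunit of Rubisco, had 34060, 25060 and 30450 CPM in re-watered leaves and 34350, 30060 and 19890 CPM in day 12 leaves. RCA (AT2G39730), the activase of Rubisco, had 37650, 31210 and 33830 CPM in re-watered leaves and 37840, 42200 and 31950 CPM in day 12 leaves. Both loci overlapped between the groups. Of the 4 epidermis markers 1 was in the table and none passed the filter on low counts. In bulk leaf RNA, fewer cells of a type and less RNA per cell cannot be told apart.

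Re-watered and day 12 leaves differed at many loci at midnight. Of 14052 loci tested, 6027 (42.9%) differed at an adjusted p under 0.05 by the quasi-likelihood test of edgeR. 3130 loci (22.3%) were higher in re-watered leaves and 2897 (20.6%) were lower. The fold change reached at least 2 for 1732 of the higher loci and 950 of the lower ones (19.1% in all), and at least 16 for 145 higher and 49 lower loci. The median log2 change over all loci was 0.012. At 7955 loci (56.6%) the 3 re-watered and the 3 day 12 values did not overlap. Of the 502 loci in 27 functional lists, 397 were in the table and 387 passed the filter on low counts. Among those 387, 100 were higher and 104 lower. A list is described below by how many of its tested members were called in each direction and by its median log2 change, to be read against 22.3% higher, 20.6% lower and a median of 0.012 over all loci.

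**Figure D1:**
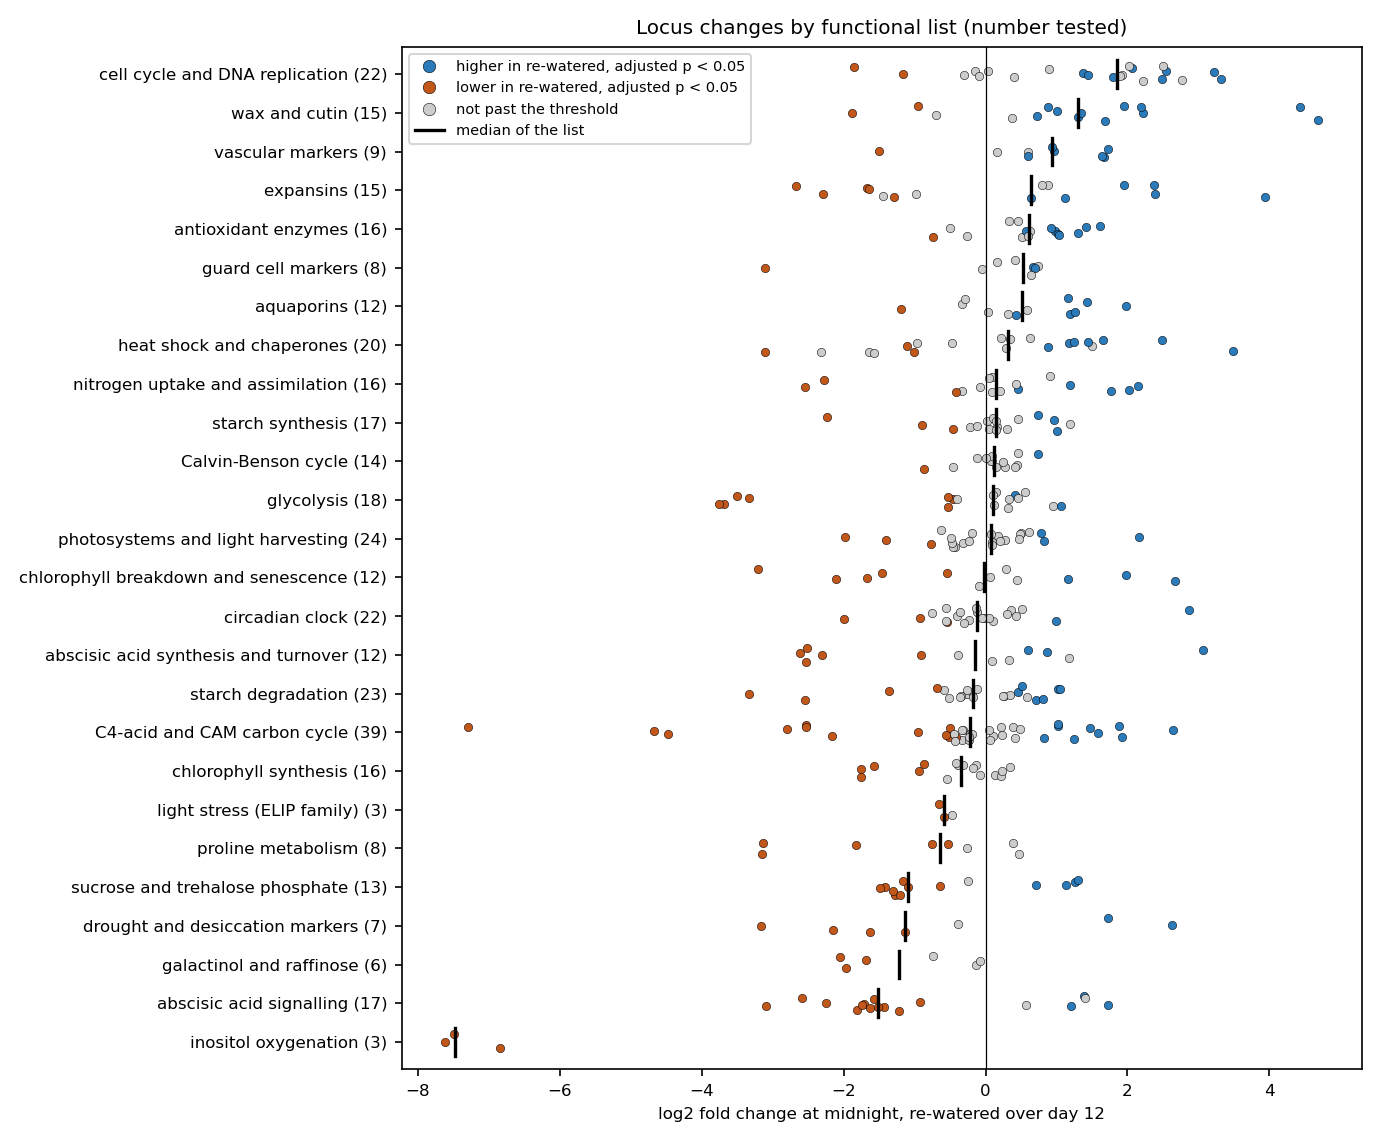
Each point is the log2 fold change at midnight, re-watered over day 12, of 1 tested locus, grouped by functional list with the number tested in parentheses. Blue points were higher and orange points lower in re-watered leaves at an adjusted p under 0.05, grey points did not pass, and the black bar is the median of the list. Inositol oxygenation has the lowest median at -7.48 and cell cycle and DNA replication the highest at 1.85. The cell cycle list includes loci with at most 3 reads over the day 12 libraries.

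The largest increases included flavonoid, purine and P450 loci. AT5G42800, dihydroflavonol 4-reductase, had 47.4, 93.1 and 60.7 CPM in re-watered leaves and 0.518, 0.241 and 0.288 CPM in day 12 leaves. AT1G61720, the Arabidopsis locus of anthocyanidin reductase, had 46, 66.5 and 50.6 CPM in re-watered leaves and 0.518, 0.723 and 0.0959 CPM in day 12 leaves. In both, every re-watered library lay above every day 12 library, with log2 changes of 7.55 (SE 0.99, adjusted p = 1.63e-06) and 6.96 (SE 0.84, adjusted p = 4.57e-07). The authors' contigs matched to AT1G61720 differed in mean RPM (reads scaled to the library total), given without error. Tt9601 had 109, 0.667 and 154.3 RPM in the re-watered, day 12 and day 0 leaves. Tt44744_13 changed far less, with 43.7, 30.3 and 35 RPM in the same order. Allantoinase (AT4G04955), which opens the ring of allantoin in purine breakdown, had 146, 216 and 189.7 CPM in re-watered leaves and 0.777, 5.78 and 1.34 CPM in day 12 leaves. Its log2 change was 6.14 (SE 1.38, adjusted p = 0.00105), and 7.37 without day 12 replicate 2. A pair of cytochrome P450 loci of family 708, AT5G48000 and AT1G78490, were also higher. AT5G48000 had 148, 291 and 224 reads in the re-watered libraries and 1, 2 and 0 in the day 12 libraries, a ratio of 241.5 with a counting interval (95%) of 82.28 to 1174. Its fitted log2 change moved between 7.05 and 8.54 as single libraries were left out, day 12 replicates 2 and 3 among them. AT1G78490 had 17, 30.5 and 20.4 CPM in re-watered leaves and 0.13, 0.843 and 0.288 CPM in day 12 leaves, a log2 change of 5.71 (adjusted p = 6.49e-05), or 6.58 without day 12 replicate 2. Neither overlapped between the groups.

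Among the abundant transcripts, the peroxidase locus AT4G21960 had 3680, 3309 and 3863 CPM in re-watered leaves and 273, 364 and 291 CPM in day 12 leaves. It was 11.7-fold higher after re-watering (log2 3.55, SE 0.43, adjusted p = 2.03e-07). Metallothionein 3 (AT3G15353), a small metal-binding protein, had 7906, 7064 and 6680 CPM in re-watered leaves and 2415, 2920 and 1830 CPM in day 12 leaves, a 3.02-fold increase (adjusted p = 0.00772). Neither locus overlapped between the groups. The P-protein of glycine decarboxylase (AT2G26080), a photorespiratory enzyme of mitochondria, was 1.86-fold higher (adjusted p = 0.00475), and ferric reduction oxidase 6 (AT5G49730) 2.45-fold higher (adjusted p = 9.22e-06).

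The largest decreases included loci that were close to absent after re-watering. AT5G50360, which carries no description in the files, had 0 reads in each re-watered library and 65, 104 and 105 reads in the day 12 libraries, so it was at least 83.57-fold lower, with the floor set at 3 reads over the re-watered group. AT3G29410, annotated as a terpenoid cyclase, had 1, 1 and 0 reads in the re-watered libraries and 62, 117 and 252 in the day 12 libraries. Its ratio of day 12 over re-watered was 197.2 with a counting interval of 54.26 to 1633. AT3G27250 and AT3G48510, which also carry no description, had log2 changes of -6.77 (adjusted p = 5.90e-13) and -6.22 (adjusted p = 8.78e-11). A pair of phosphodiesterase loci, AT5G41080 and AT3G02040 (annotated as senescence-related gene 3), had 0.258, 1.08 and 1.24 CPM and 0.644, 0.838 and 1.36 CPM in re-watered leaves and 73.7, 25.7 and 67 CPM and 61.8, 19.5 and 53 CPM in day 12 leaves. The large subunit of carbamoyl phosphate synthetase (AT1G29900), which feeds arginine and pyrimidine synthesis, had 92.6, 78.2 and 76.8 CPM in re-watered leaves and 1714, 1576 and 1863 CPM in day 12 leaves. It was 20.8-fold lower (log2 -4.38, SE 0.28, adjusted p = 3.46e-12), and in none of these 7 loci did the groups overlap.

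Loci of the nocturnal carboxylation step and a tonoplast carrier had the largest decreases of the CAM list. Of 49 loci of the C4-acid and CAM cycle, 40 were in the table and 39 were tested, of which 9 were higher and 12 lower in re-watered leaves, with a median log2 change of -0.22. PEP carboxylase PPC1 (AT1G53310) had 623, 704 and 511 CPM in re-watered leaves and 11450, 15550 and 14030 CPM in day 12 leaves. It was 22.3-fold lower (log2 -4.48, SE 0.34, adjusted p = 5.54e-11). PPC2 (AT2G42600) had 360, 372 and 300.5 CPM in re-watered leaves and 7348, 9769 and 9081 CPM in day 12 leaves, 25.4-fold lower (log2 -4.67, SE 0.31, adjusted p = 5.99e-12). For both loci the lowest day 12 library was far above the highest re-watered one. Reads of 1 Talinum gene may be split between PPC1 and PPC2, so neither value belongs to a single gene. The contig table speaks to this, with the authors' mean RPM (reads scaled to the library total) and no error. Contig Tt63271, matched to PPC1, had 168 RPM in re-watered leaves, 6462 RPM in day 12 leaves and 66.3 RPM in day 0 leaves. Contig Tt9871_8, matched to PPC2, had 281 RPM in re-watered leaves, 1198 RPM in day 12 leaves and 357.7 RPM in day 0 leaves. Contig Tt47449, matched to PPC1 as well, had 31.7, 47 and 12.3 RPM in the re-watered, day 12 and day 0 leaves. The contigs of the family thus differed widely in the ratio of day 12 to re-watered leaves.

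The kinases that phosphorylate PEP carboxylase and the enzyme that regenerates PEP fell with it. PPCK1 (AT1G08650) had 52.3, 43.6 and 62.3 CPM in re-watered leaves and 355, 384 and 361 CPM in day 12 leaves, and PPCK2 (AT3G04530) had 13.3, 11.5 and 17.2 CPM in re-watered leaves and 74.3, 91.7 and 75.8 CPM in day 12 leaves. They were 6.95-fold (adjusted p = 1.88e-10) and 5.76-fold (adjusted p = 5.22e-09) lower, with no overlap of the groups. The pair may share reads. Contig Tt31423_5, matched to PPCK1, had 40.7, 1232 and 72 RPM in the re-watered, day 12 and day 0 leaves. Contig Tt5505_2, also matched to PPCK1, ran the other way, with 13.7, 1.67 and 12 RPM in the same order. Pyruvate, phosphate dikinase PPDK (AT4G15530) had 2056, 2057 and 2033 CPM in re-watered leaves and 9924, 15940 and 9702 CPM in day 12 leaves, 5.79-fold lower (log2 -2.53, SE 0.38, adjusted p = 6.27e-06). The re-watered values were nearly equal, and day 12 replicate 2 stood above the other 2 day 12 libraries. At contig level, Tt26901 had 2050 RPM in re-watered leaves, 12924 RPM in day 12 leaves and 1558 RPM in day 0 leaves. A second PPDK contig, Tt24575, was higher after re-watering, with 367.7 RPM, against 220 RPM on day 12 and 358 RPM on day 0.

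Transporters and malic enzymes moved less evenly. BASS2 (AT2G26900), which carries pyruvate into the chloroplast, had 70.3, 61.3 and 76 CPM in re-watered leaves and 287, 364 and 279.9 CPM in day 12 leaves, 4.48-fold lower (log2 -2.16, SE 0.21, adjusted p = 2.69e-09). The tonoplast dicarboxylate transporter tDT (AT5G47560), a malate carrier of the vacuole, had 0, 0 and 1 reads in the re-watered libraries and 152, 28 and 52 in the day 12 libraries. Its ratio of day 12 over re-watered was 212.3, with a counting interval of 37.73 to 8421. The fitted log2 change of -7.29 became -6.16 without day 12 replicate 1 and -9.02 without re-watered replicate 3. ALMT6 (AT2G17470), a malate channel of the vacuole in Arabidopsis guard cells, had 14.9, 15.3 and 13.7 CPM in re-watered leaves and 29, 24 and 32 CPM in day 12 leaves, 1.93-fold lower (adjusted p = 3.09e-05) without overlap. NAD-malic enzyme NAD-ME1 (AT2G13560), which releases CO2 from malate in mitochondria, was 1.43-fold lower (adjusted p = 0.000873). ALMT4 (AT1G25480) was 1.48-fold lower (adjusted p = 0.0112), but was not called without day 12 replicate 1 or re-watered replicate 3, where the adjusted p reached 0.0717. The same held for NADP-ME4 (AT1G79750), a malic enzyme, at 1.41-fold lower (adjusted p = 0.016), with an adjusted p of up to 0.079 without day 12 replicate 2 or re-watered replicate 3. NADP-ME2 (AT5G11670) passed narrowly (log2 -0.42, adjusted p = 0.0488) and did not pass without day 12 replicate 2 or 3 or without any 1 re-watered library, with an adjusted p of up to 0.251. It also did not pass with upper quartile scaling, limma, the replicate number as a block or other filters on low counts. The reads of both NADP-malic enzyme loci may come from the same genes. Carbonic anhydrase BCA1 (AT3G01500), which supplies bicarbonate, had 5293, 2775 and 4927 CPM in re-watered leaves and 7191, 6043 and 4481 CPM in day 12 leaves and was not called (adjusted p = 0.386).

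Other members of the list were higher after re-watering. The plastid PEP translocators PPT1 (AT5G33320) and PPT2 (AT3G01550), which exchange PEP for phosphate, had 42.5, 36.9 and 45.9 CPM and 15.5, 14.6 and 19 CPM in re-watered leaves and 20.8, 21.8 and 19.2 CPM and 3.75, 4.82 and 4.32 CPM in day 12 leaves. They were 2.03-fold (adjusted p = 2.79e-05) and 3.79-fold higher (adjusted p = 3.74e-08). RP1 (AT4G21210), which switches the dikinase on and off by phosphorylation, had 59.4, 55.5 and 61.3 CPM in re-watered leaves and 29.1, 31.2 and 26.9 CPM in day 12 leaves, 2.02-fold higher (adjusted p = 2.87e-06). It moved opposite to its target PPDK, and neither it nor the translocators overlapped between the groups. The aspartate aminotransferases ASP1 (AT2G30970) of mitochondria and ASP5 (AT4G31990) of plastids were 2.37-fold (adjusted p = 4.20e-06) and 2.78-fold (adjusted p = 7.87e-07) higher. Plastid malate dehydrogenase plNAD-MDH (AT3G47520) was 1.77-fold higher (adjusted p = 0.00286).

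The mitochondrial dicarboxylate carriers, which exchange malate across the inner membrane, had low levels at night. DIC3 (AT5G09470) had 1.8, 1.8 and 3.09 CPM in re-watered leaves and 0.647, 0.361 and 0.0959 CPM in day 12 leaves. Its log2 change was 2.64 (SE 0.55, adjusted p = 0.000355), or 3.27 without day 12 replicate 1. DIC2 (AT4G24570) had 3.22, 5.75 and 8.53 CPM in re-watered leaves and 1.29, 1.32 and 2.02 CPM in day 12 leaves, 3.68-fold higher (adjusted p = 0.00597). DIC1 (AT2G22500) was 3-fold higher (adjusted p = 0.0155), but its log2 change was 0.97 with an adjusted p of 0.181 without re-watered replicate 3. Re-watered replicate 3 held the highest value of the group at all 3 carriers, and reads may be shared among them.

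**Figure D2:**
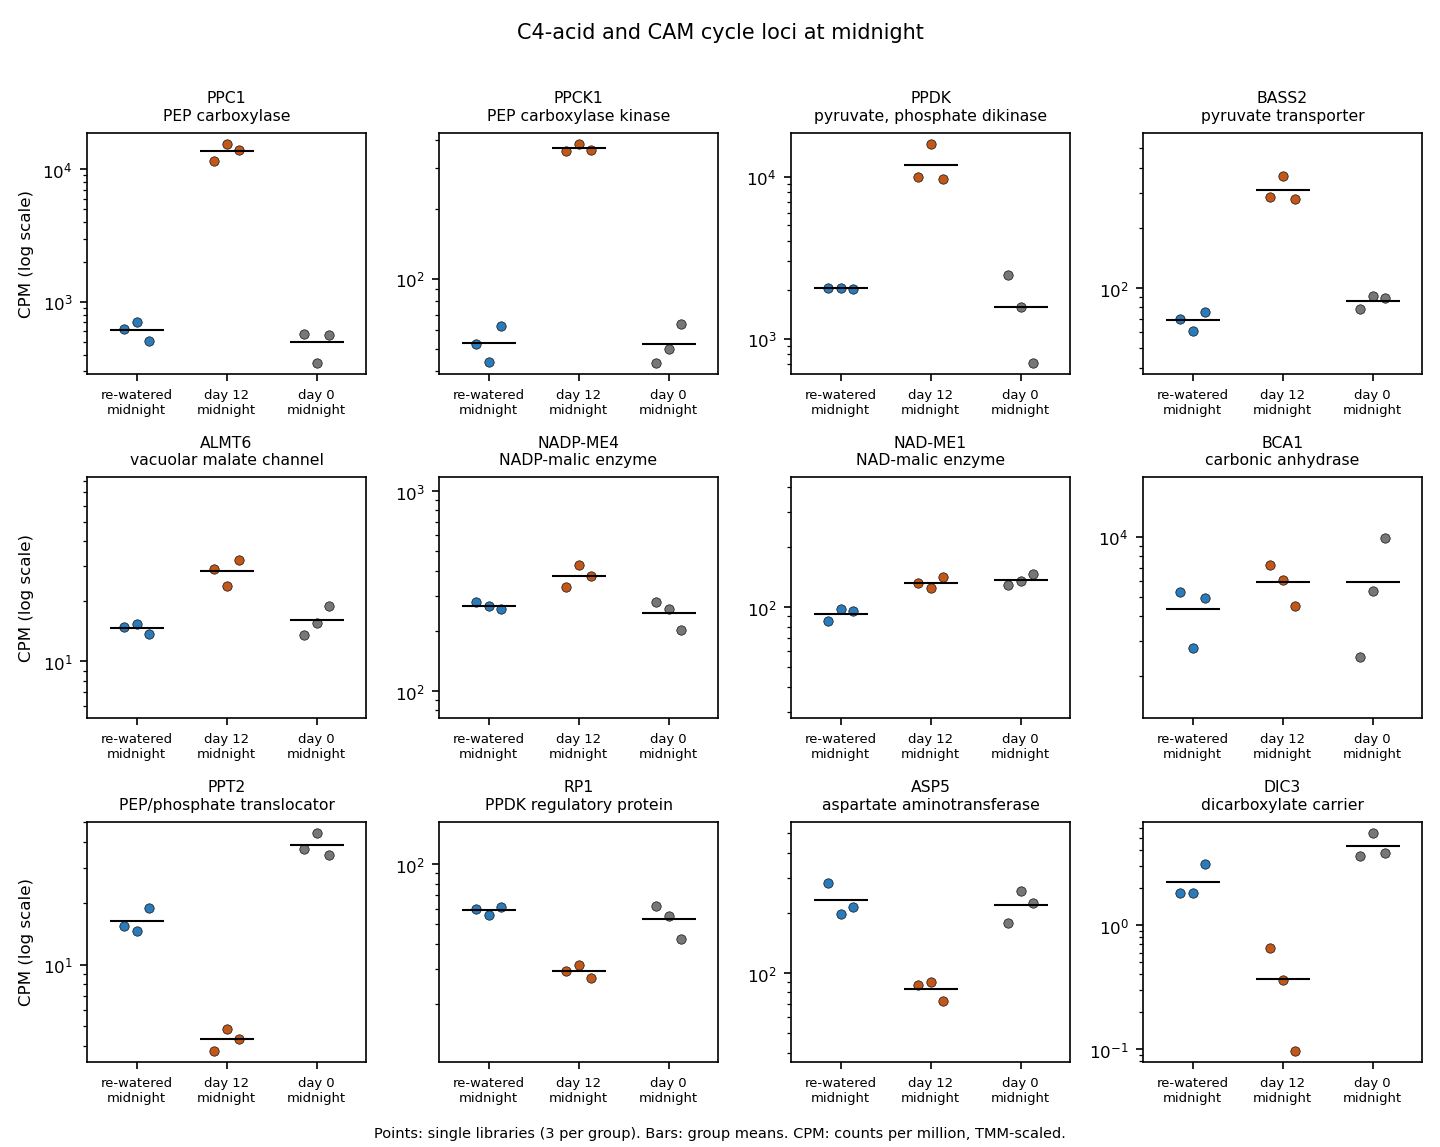
CPM on a log scale of 12 loci of the CAM list in each midnight library, with re-watered leaves left, day 12 leaves in the middle and day 0 leaves right (3 points per group, bar at the mean). PPC1, PPCK1, PPDK and BASS2 lie lower in re-watered than in day 12 leaves, PPT2, RP1, ASP5 and DIC3 lie higher, and BCA1 overlaps.

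Loci of starch breakdown moved in both directions. Of 23 tested starch degradation loci, 6 were higher and 4 lower (median -0.17), and the number higher was 3 without re-watered replicate 1. The plastid alpha-amylase AMY3 (AT1G69830) had 104, 108 and 107 CPM in re-watered leaves and 822, 416 and 613 CPM in day 12 leaves, 5.8-fold lower (log2 -2.54, SE 0.19, adjusted p = 5.63e-11). BAM9 (AT5G18670), described as beta-amylase 3 in the files and, in Arabidopsis, a member of the family without catalytic activity, had 97, 99.9 and 102 CPM in re-watered leaves and 929, 1062 and 1031 CPM in day 12 leaves. It was 10.1-fold lower (log2 -3.34, SE 0.2, adjusted p = 5.90e-13). Beta-amylase BAM1 (AT3G23920), which frees maltose from starch in guard cells and stressed leaves of Arabidopsis, was 2.57-fold lower (adjusted p = 0.000145). None of the 3 overlapped between the groups. The main beta-amylase of Arabidopsis leaves at night, BAM3 (AT4G17090), had 399, 482 and 434 CPM in re-watered leaves and 561, 416 and 531 CPM in day 12 leaves and was not called (adjusted p = 0.663). Glucan, water dikinase GWD1 (AT1G10760), which phosphorylates starch to open the granule, was not called either (log2 -0.52, adjusted p = 0.0913). It passed in a fit of the groups compared alone (adjusted p = 0.00436) and in one without re-watered midday replicate 3 and day 0 midnight replicate 3 (adjusted p = 0.049). Phosphoglucan, water dikinase PWD (AT5G26570), the maltose exporter MEX1 (AT5G17520) and the debranching enzyme ISA3 (AT4G09020) were 2.02-fold (adjusted p = 0.000395), 2.06-fold (adjusted p = 9.54e-05) and 1.75-fold (adjusted p = 0.00505) higher.

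Starch synthases changed in both directions. Of 17 tested loci of starch synthesis 3 were higher and 3 lower (median 0.15). SS1 (AT5G24300), a soluble starch synthase, had 15.5, 15.8 and 20.1 CPM in re-watered leaves and 65.1, 119.5 and 56.7 CPM in day 12 leaves, 4.69-fold lower (adjusted p = 5.41e-06). Granule-bound starch synthase GBSS1 (AT1G32900), which makes amylose, was 1.86-fold lower (adjusted p = 0.00156). SS2 (AT3G01180), SS3 (AT1G11720) and plastid phosphoglucose isomerase PGI1 (AT4G24620) were 1.67-fold, 2.01-fold and 1.95-fold higher (adjusted p = 0.000285, 7.67e-05 and 5.26e-05).

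Phosphofructokinase, which commits hexose phosphate to glycolysis, was lower at each of 4 loci. PFK1 (AT4G29220) had 29.2, 29.5 and 30.5 CPM in re-watered leaves and 225, 512 and 273 CPM in day 12 leaves, and PFK3 (AT4G26270) had 30.9, 38.4 and 37.1 CPM in re-watered leaves and 231, 541 and 298 CPM in day 12 leaves. The fold decreases were 11.3 for PFK1, 10.1 for PFK3, 12.9 for PFK4 (AT5G61580) and 13.5 for PFK6 (AT4G32840) (adjusted p = 1.90e-11, 4.91e-12, 1.02e-11 and 2.52e-11). The re-watered libraries were close to each other, day 12 replicate 2 was the highest of its group at all 4, and the groups did not overlap. The 4 loci may be read from few genes. The only contig matched to PFK6, Tt25453_2, did not show the decrease of the locus. It had 5.33, 5.67 and 7.33 RPM in the re-watered, day 12 and day 0 leaves. At contig level Tt12826, matched to PFK3, had 92.3 RPM in re-watered leaves, 1418 RPM in day 12 leaves and 90 RPM in day 0 leaves, while contig Tt25453, also matched to PFK3, had 24 RPM in re-watered leaves, 15 RPM in day 12 leaves and 24 RPM in day 0 leaves. Non-phosphorylating glyceraldehyde-3-phosphate dehydrogenase NP-GAPDH (AT2G24270) was 2.09-fold higher (adjusted p = 0.0019), though not in a fit of the groups compared alone. Of 18 tested glycolysis loci, 2 were higher and 7 lower. The number higher was 1 without day 12 replicate 1 or 2 or re-watered replicate 2 or 3.

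Abscisic acid (ABA) is the hormone that closes stomata and sets off dehydration responses. It is made by 9-cis-epoxycarotenoid dioxygenases (NCED), inactivated by 8'-hydroxylases of the CYP707A family, and perceived by PYR/PYL receptors, which block PP2C phosphatases and so free SnRK2 kinases and the ABF transcription factors. In re-watered leaves 4 NCED loci and several phosphatase, kinase and transcription factor loci were lower at midnight, and 3 receptors and a hydroxylase were higher. NCED3 (AT3G14440) had 7.86, 7.42 and 5.69 CPM in re-watered leaves and 22, 55.2 and 43 CPM in day 12 leaves, 5.73-fold lower (log2 -2.52, SE 0.4, adjusted p = 1.49e-05). The loci NCED2 (AT4G18350), NCED5 (AT1G30100) and NCED9 (AT1G78390), which may share its reads, had log2 changes of -2.62, -2.31 and -2.53 (adjusted p = 3.08e-05, 0.000228 and 6.40e-05). At all 4 loci day 12 replicate 1 was the lowest of its group and still above every re-watered library. CYP707A2 (AT2G29090) had 15.8, 16.6 and 18.5 CPM in re-watered leaves and 1.94, 1.45 and 2.59 CPM in day 12 leaves, 8.34-fold higher (log2 3.06, SE 0.36, adjusted p = 1.43e-07). Of 12 tested loci of ABA synthesis and turnover 3 were higher and 5 lower (median -0.15), and 1 was higher without day 12 replicate 3.

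Of 25 loci of ABA signalling, 17 were tested, of which 3 were higher and 12 lower, with a median of -1.51. The phosphatases HAI2 (AT1G07430) and AHG3 (AT3G11410) had 53.3, 46.7 and 50.4 CPM and 127, 110.1 and 110.4 CPM in re-watered leaves and 275, 315 and 318 CPM and 579.7, 511 and 567 CPM in day 12 leaves. They were 6.03-fold (adjusted p = 1.28e-08) and 4.77-fold (adjusted p = 4.03e-08) lower. The kinases SNRK2.2 (AT3G50500) and OST1 (AT4G33950) had 113, 98.2 and 91.1 CPM and 77.5, 92.9 and 79.7 CPM in re-watered leaves and 371, 263 and 361 CPM and 218, 197 and 258 CPM in day 12 leaves, 3.29-fold (adjusted p = 6.16e-10) and 2.69-fold (adjusted p = 6.93e-09) lower. The transcription factors ABF1 (AT1G49720), ABF2 (AT1G45249) and ABF3 (AT4G34000), which may share reads and were named after their values were seen, were 3.5-fold, 3.35-fold and 3.1-fold lower (adjusted p = 3.77e-07, 1.68e-06 and 6.94e-06). In all of these loci the groups were apart. The 3 members that rose were receptors. PYR1 (AT4G17870) had 11.7, 11.3 and 14.7 CPM in re-watered leaves and 5.05, 4.34 and 4.99 CPM in day 12 leaves, and PYL2 (AT2G26040) had 5.54, 6.83 and 5.19 CPM in re-watered leaves and 3.11, 2.89 and 1.73 CPM in day 12 leaves. PYL4 (AT2G38310) had 6.96, 5.87 and 6.8 CPM in re-watered leaves and 1.68, 2.17 and 2.02 CPM in day 12 leaves. All 3 were apart between the groups. Their log2 changes were 1.39, 1.2 and 1.73 (adjusted p = 4.80e-05, 0.00237 and 9.71e-05).

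Among 8 tested guard cell markers 2 were higher and 1 lower (median 0.52). Their summed level was 63.95 to 74.91 CPM in the re-watered libraries and 114.8 to 129.4 CPM in the day 12 libraries. The outward potassium channel GORK (AT5G37500), through which guard cells lose potassium as stomata close, had 11.8, 7.54 and 6.8 CPM in re-watered leaves and 72.6, 73.5 and 79 CPM in day 12 leaves. It was 8.6-fold lower (log2 -3.1, SE 0.31, adjusted p = 9.43e-09). Its mean was 8.73 CPM in re-watered leaves and 75 CPM in day 12 leaves. GORK is itself part of the summed level, so that sum does not show whether the other markers fell. The inward channel KAT2 (AT4G18290) was 1.59-fold higher (adjusted p = 0.00154). Without re-watered replicate 3 the number higher was 1.

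Several drought markers fell. ATHB7 (AT2G46680), an ABA-induced homeodomain factor, had 50.8, 44.8 and 35.1 CPM in re-watered leaves and 309.9, 415 and 447 CPM in day 12 leaves, 8.97-fold lower (log2 -3.17, SE 0.28, adjusted p = 1.32e-09). The NAC factor RD26 (AT4G27410), ERD15 (AT2G41430) and the dehydrin COR47 (AT1G20440) were 4.43-fold, 3.09-fold and 2.21-fold lower (adjusted p = 0.000518, 1.45e-06 and 0.00539). Against the name of the list, RD22 (AT5G25610), a BURP-domain protein, and LEA14 (AT1G01470) were higher. RD22 had 209, 264 and 255 CPM in re-watered leaves and 24.7, 67.5 and 26.2 CPM in day 12 leaves, a log2 change of 2.62 (adjusted p = 0.000318), or 3.25 without day 12 replicate 2. LEA14 had 2.58, 2.4 and 1.98 CPM in re-watered leaves and 1.04, 0.723 and 0.384 CPM in day 12 leaves (3.3-fold higher, adjusted p = 0.0024). In all, 11 of the 17 drought markers were in the table and 7 passed the filter on low counts, of which 2 were higher and 4 lower.

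Inositol oxygenase, which opens the inositol ring to glucuronic acid, was among the loci with the largest decreases. MIOX1 (AT1G14520) had 0.386, 0.479 and 0.618 CPM in re-watered leaves and 119, 109.5 and 72.5 CPM in day 12 leaves, 196-fold lower (log2 -7.61, SE 0.81, adjusted p = 7.43e-08). MIOX2 (AT2G19800) and MIOX4 (AT4G26260) had log2 changes of -7.48 and -6.84 (adjusted p = 1.84e-06 and 2.79e-06), which became -10.84 and -7.50 without re-watered replicate 3. Of 2 contigs matched to MIOX1, Tt46231 held 98.2% of their summed RPM in day 12 leaves. It had 1 RPM in re-watered leaves, 213.7 RPM in day 12 leaves and 1.33 RPM in day 0 leaves, and the 3 loci may share reads.

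Galactinol is the precursor of raffinose, a sugar that accumulates in dry cells. AT1G55740, described as seed imbibition 1, had 45.5, 55.5 and 38.1 CPM in re-watered leaves and 1673, 1958 and 2254 CPM in day 12 leaves, 42.3-fold lower (log2 -5.4, SE 0.48, adjusted p = 2.03e-09). SIP2 (AT3G57520), an alpha-galactosidase that cleaves raffinose, had 1313, 1140 and 911 CPM in re-watered leaves and 3798, 5405 and 4786 CPM in day 12 leaves, 4.16-fold lower (adjusted p = 2.97e-06). The galactinol synthases GOLS1 (AT2G47180) and GOLS3 (AT1G09350) were 3.23-fold (adjusted p = 0.000293) and 3.92-fold (adjusted p = 0.000526) lower. SIP2, GOLS1 and GOLS3 were the 3 lower members among 6 tested galactinol and raffinose loci, with none higher, and AT1G55740 stands outside that list.

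Loci of proline breakdown fell. ProDH1 (AT3G30775) and ProDH2 (AT5G38710), proline dehydrogenases that begin proline breakdown and are described by the files under a broader family name, had 25.5, 34.4 and 26.3 CPM and 34.4, 36.9 and 30.8 CPM in re-watered leaves and 187, 310.2 and 273 CPM and 217, 384 and 296 CPM in day 12 leaves. They were 8.92-fold (adjusted p = 0.000319) and 8.79-fold (adjusted p = 0.000562) lower, and may share reads. P5CDH (AT5G62530), the next step of breakdown, was 3.55-fold lower (adjusted p = 1.78e-07). P5CS1 (AT2G39800), which makes proline, had 49.3, 44.3 and 50.8 CPM in re-watered leaves and 66.9, 34.1 and 72.7 CPM in day 12 leaves, which overlapped, and was not called (adjusted p = 0.311). Without day 12 replicate 2 it was called lower, at a log2 change of -0.54 (adjusted p = 0.0233). Of 8 tested proline loci 5 were lower and none higher.

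Sucrose and trehalose phosphate loci changed in both directions. The sucrose phosphate synthases SPS1 (AT5G20280) and SPSB (AT5G11110), which make sucrose, had 202, 219 and 224 CPM and 114, 122 and 130 CPM in re-watered leaves and 94.4, 86.6 and 88 CPM and 54.2, 54.5 and 58.3 CPM in day 12 leaves. They were 2.4-fold (adjusted p = 5.63e-06) and 2.19-fold (adjusted p = 6.08e-06) higher. SUS3 (AT4G02280), a sucrose synthase, which cleaves sucrose, was 2.67-fold lower (adjusted p = 0.000206). TPS9 (AT1G23870) and TPS10 (AT1G60140), of the trehalose phosphate synthase family, were 2.47-fold and 2.25-fold lower (adjusted p = 1.33e-05 and 1.52e-05), while TPS5 (AT4G17770) was 1.64-fold higher (adjusted p = 0.00326). Of the 13 tested, 4 were higher and 8 lower, with a median of -1.1.

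**Figure D3:**
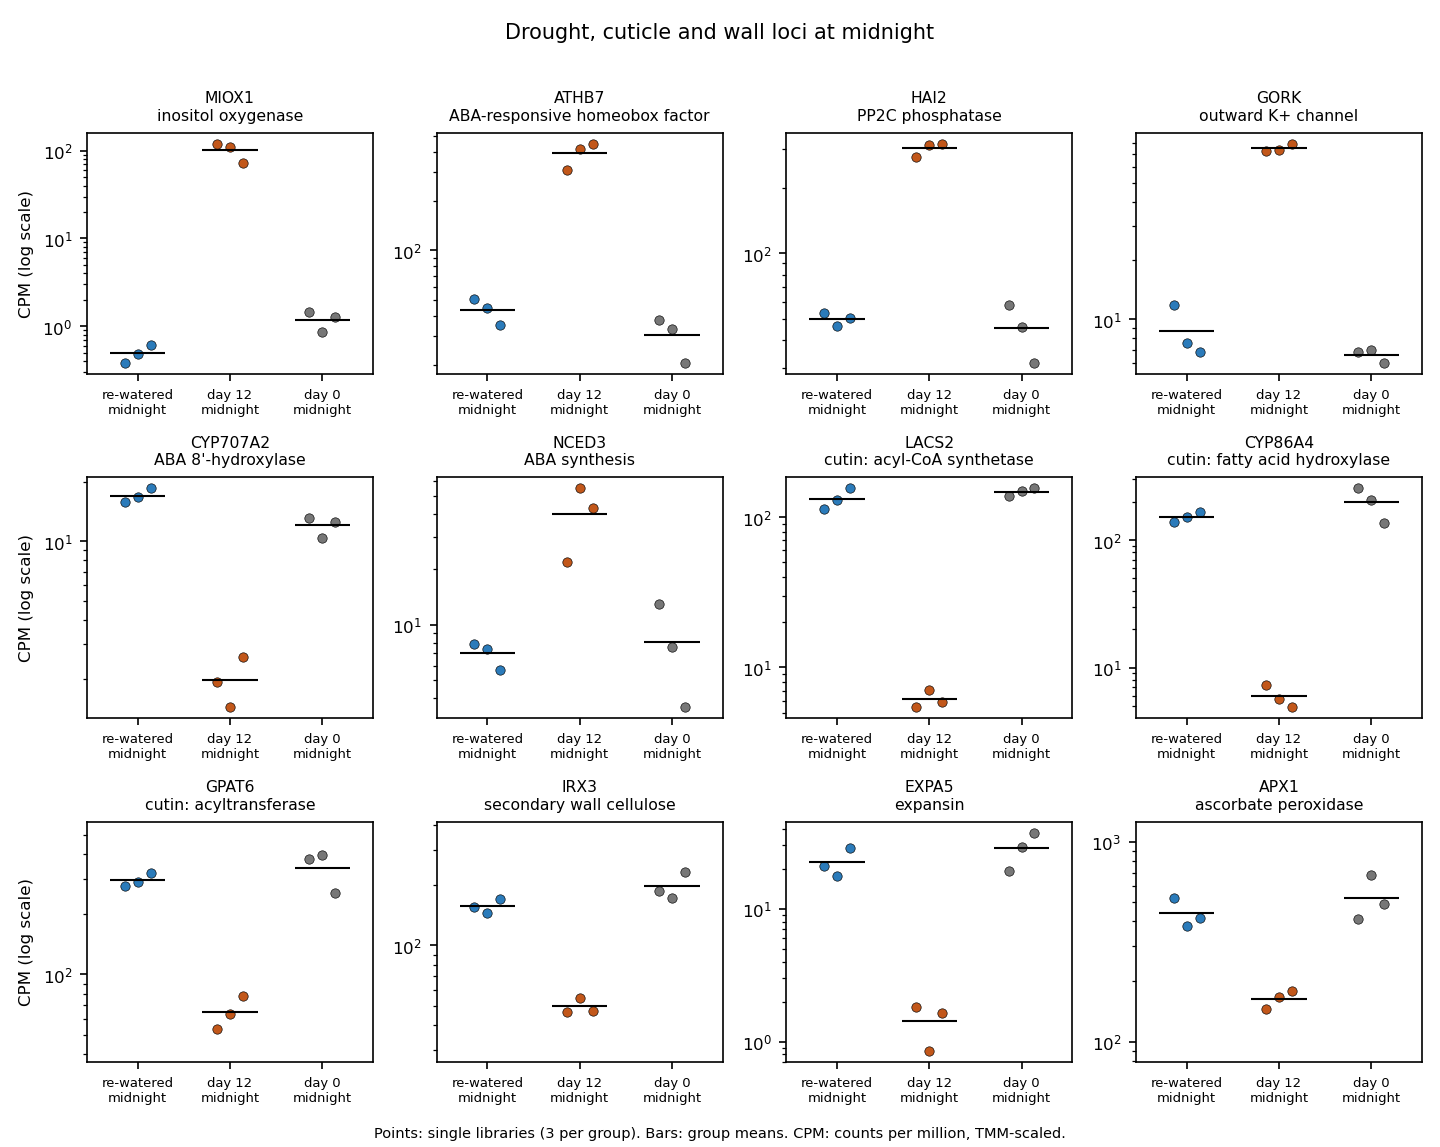
CPM on a log scale of 12 loci of the inositol, drought, ABA, guard cell, cuticle, vascular, expansin and antioxidant lists in each midnight library. Re-watered leaves are left, day 12 leaves in the middle and day 0 leaves right (3 points per group, bar at the mean). The first 4 panels and NCED3 lie lower in re-watered than in day 12 leaves and the other 7 lie higher. In each panel the re-watered and day 12 libraries do not overlap.

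Most cuticle loci rose. Cutin, the polyester of the cuticle, is built from fatty acids that are activated to CoA esters, hydroxylated by CYP86A enzymes and joined to glycerol by GPAT enzymes. LACS2 (AT1G49430), an acyl-CoA synthetase of cutin synthesis, had 113, 131 and 155 CPM in re-watered leaves and 5.44, 7.11 and 5.85 CPM in day 12 leaves. It was 21.6-fold higher (log2 4.43, SE 0.2, adjusted p = 3.81e-15). CYP86A4 (AT1G01600) had 140, 151 and 166 CPM in re-watered leaves and 7.25, 5.66 and 4.89 CPM in day 12 leaves, 25.8-fold higher (log2 4.69, SE 0.38, adjusted p = 3.99e-10). The other CYP86A loci AT1G63710 and AT2G45970, outside the list, had 104, 101 and 117 CPM and 84.8, 85 and 86.7 CPM in re-watered leaves and 0.388, 1.45 and 0.576 CPM and 0.777, 2.17 and 0.767 CPM in day 12 leaves. Their log2 changes were 7.04 (adjusted p = 1.85e-09) and 6.11 (adjusted p = 2.47e-10), or 7.71 and 6.76 without day 12 replicate 2, and the 3 CYP86A loci may share reads. GPAT6 (AT2G38110) had 277, 291 and 322 CPM in re-watered leaves and 53.5, 63.6 and 78.1 CPM in day 12 leaves, 4.56-fold higher (adjusted p = 3.61e-08). The lipid exporter ABCG11 (AT1G17840) and the transcription factor SHN1 (AT1G15360), which activates cuticle genes in Arabidopsis and was named after its values were seen, were 2.54-fold (adjusted p = 1.69e-07) and 3.88-fold (adjusted p = 5.95e-07) higher. In every one of these loci the groups were apart. The exceptions belonged to very-long-chain lipids and waxes, where KCS2 (AT1G04220), an elongase, and CER3 (AT5G57800), of alkane synthesis, were 3.67-fold (adjusted p = 4.02e-07) and 1.93-fold (adjusted p = 0.00189) lower. Of 15 tested wax and cutin loci 11 were higher and 2 lower, with a median of 1.3.

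Several loci annotated as wall or lipid enzymes were among the increases. The GDSL-like lipase loci AT4G28780 and AT5G33370 had 221, 228 and 309 CPM and 274, 255 and 339 CPM in re-watered leaves and 4.92, 1.93 and 4.7 CPM and 6.47, 2.53 and 7.48 CPM in day 12 leaves, log2 changes of 6.02 and 5.7 (adjusted p = 1.64e-06 and 1.61e-06). The SKU5-like locus AT1G76160, the glycosyl hydrolase AT2G32990 and the fasciclin-like arabinogalactan protein AT2G35860 had log2 changes of 5.91, 5.85 and 5.86 (adjusted p = 3.29e-12, 8.46e-11 and 1.76e-13). That of AT2G35860 was 6.45 without day 12 replicate 3. The cellulose synthases of secondary walls IRX1 (AT4G18780), IRX3 (AT5G17420) and IRX5 (AT5G44030) were 3.32-fold, 3.18-fold and 3.11-fold higher (adjusted p = 1.05e-08, 5.18e-10 and 4.05e-10). They belong to the 9 tested vascular markers, of which 6 were higher and 1 lower. The lower marker was the sugar exporter SWEET11 (AT3G48740) (2.84-fold, adjusted p = 1.02e-06). Contigs matched to SWEET11 ran in opposite directions. Tt40892 had 6.33, 1013 and 27 RPM in the re-watered, day 12 and day 0 leaves, and Tt59713_4 had 2, 98 and 23.3 RPM. Tt41473 had 277.3, 37 and 384.3 RPM in the same order. How far a change in vascular tissue had a part in these wall loci was not tested. The summed level of the vascular markers was 693.1 to 872.3 CPM in the re-watered libraries and 445.4 to 494.1 CPM in the day 12 libraries.

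Expansins loosen walls during growth. Of 15 tested, 6 were higher and 5 lower (median 0.64), and the number lower was 3 without re-watered replicate 1. EXPA5 (AT3G29030) had 20.9, 17.6 and 28.6 CPM in re-watered leaves and 1.81, 0.843 and 1.63 CPM in day 12 leaves, 15.4-fold higher (adjusted p = 3.45e-08), and EXPA6 (AT2G28950) was 5.23-fold higher (adjusted p = 1.05e-06). EXPA14 (AT5G56320) had 6.44, 10.2 and 9.77 CPM in re-watered leaves and 46.7, 59.5 and 62.7 CPM in day 12 leaves, 6.39-fold lower (adjusted p = 4.77e-05), and EXPA15 (AT2G03090) was 2.45-fold lower (adjusted p = 0.00584). The contig matched to EXPA15 in the authors' table, Tt58678, ran the other way, with 40 RPM in re-watered leaves, 10.7 RPM in day 12 leaves and 44 RPM in day 0 leaves. The summed level of the expansins was 343.3 to 514.2 CPM in the re-watered libraries and 651.5 to 878.4 CPM in the day 12 libraries. In the family of 161 loci with the word pectin in their description, 76 passed the filter, of which 39 were higher and 9 lower (median 1.03). Their summed level was lower all the same, at 929.6 to 1056 CPM in the re-watered libraries and 1473 to 1633 CPM in the day 12 libraries. Within that family, AT3G53190 had 17.5, 13.8 and 21.3 CPM in re-watered leaves and 1.17, 0.964 and 0.959 CPM in day 12 leaves, and AT3G48950 had 33.8, 20.1 and 25.2 CPM in re-watered leaves and 354, 323 and 345 CPM in day 12 leaves. Their log2 changes were 4.07 (adjusted p = 7.12e-11) and -3.69 (adjusted p = 4.32e-13), and that of AT2G23900 was -3.83 (adjusted p = 2.48e-12).

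Among the called loci of the cytoskeleton and of cell division most were higher. All 12 tubulin loci were tested, of which 9 were higher and none lower (median 0.75). Beta-tubulin AT5G23860 had 203, 197 and 228 CPM in re-watered leaves and 76.4, 80.0 and 53.6 CPM in day 12 leaves, 2.99-fold higher (adjusted p = 1.09e-08). Of 15 tested kinesins, motor proteins of microtubules, 8 were higher and none lower (median 0.63), with AT5G65930 2.1-fold higher (adjusted p = 1.07e-05). Of 28 tested loci described as histones or as histone superfamily proteins, 11 were higher and 2 lower. The number lower was 1 without day 12 replicate 1 or 3 or re-watered replicate 2 or 3. In the cell cycle and replication list 22 of 29 loci were in the table and all of these were tested, with 8 higher and 2 lower (median 1.85). The summed level of that list ran the other way, at 103.4 to 119 CPM in the re-watered libraries and 141.4 to 179.3 CPM in the day 12 libraries. The number higher was 3 without day 12 replicate 1, 4 without re-watered replicate 2, and 5 without day 12 replicate 2, re-watered replicate 1 or re-watered replicate 3. The median takes in loci of few reads. ORC1A, CDT1A, MCM3, MCM6 and CYCB2;1 each had at most 3 reads over the day 12 libraries. The ratio of re-watered over day 12 was 5.464 for ORC1A (counting interval 0.6114 to 258.4) and 10.56 for MCM6 (3.275 to 54.19). CYCD3;1 (AT4G34160), a cyclin that starts the cycle, had 2.58, 2.63 and 3.21 CPM in re-watered leaves and 0.388, 0.361 and 0.671 CPM in day 12 leaves, 5.58-fold higher (adjusted p = 2.58e-05). CYCB1;4 (AT2G26760), a mitotic cyclin, was 2.71-fold higher (adjusted p = 0.000314). The 2 lower members were the kinase AUR2 (AT2G25880) (2.23-fold, adjusted p = 7.39e-06) and the ribonucleotide reductase RNR2A (AT3G23580) (3.62-fold, adjusted p = 1.68e-06).

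Few photosynthetic loci passed the test at midnight. Of 24 tested photosystem and light-harvesting loci 3 were higher and 3 lower (median 0.078), and 1 was lower without day 12 replicate 1 or re-watered replicate 2. PSBY (AT1G67740), a small photosystem II protein, had 178, 157 and 173 CPM in re-watered leaves and 54.6, 37.9 and 21.4 CPM in day 12 leaves, 4.47-fold higher (adjusted p = 3.55e-07). PSBS (AT1G44575), which sheds excess light energy as heat, was 1.72-fold higher (adjusted p = 0.00303). LHCB5 (AT4G10340), a light-harvesting protein, had 71.2, 31 and 50.1 CPM in re-watered leaves and 269, 204 and 130.3 CPM in day 12 leaves, 3.96-fold lower (adjusted p = 0.000165). Of 14 tested Calvin-Benson loci 1 was higher and 1 lower, and each was lost without some single libraries, for the higher one day 12 replicate 1 or 3 or re-watered replicate 1 or 3 and for the lower one any day 12 library or re-watered replicate 2 or 3.

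Loci of chlorophyll synthesis fell where they were called, at 5 of 16 tested with none higher (median -0.35). The protochlorophyllide oxidoreductases PORB (AT4G27440) and PORC (AT1G03630), whose light-driven step completes the pigment ring, had 21.6, 18.8 and 22 CPM and 28.7, 21.7 and 19.5 CPM in re-watered leaves and 65.4, 74.3 and 70.7 CPM and 64.9, 74.4 and 67.7 CPM in day 12 leaves. They were 3.37-fold (adjusted p = 0.000469) and 2.96-fold (adjusted p = 0.00081) lower, and CAO (AT1G44446), which makes chlorophyll b, was 3.39-fold lower (adjusted p = 0.000175). In chlorophyll breakdown and senescence, 3 of 12 tested loci were higher and 5 lower. The senescence factor NAP (AT1G69490) had 23.4, 49.1 and 31.4 CPM in re-watered leaves and 305, 246 and 407 CPM in day 12 leaves, 9.2-fold lower (log2 -3.2, SE 0.65, adjusted p = 0.000313). Pheophytinase PPH (AT5G13800) and pheophorbide a oxygenase PAO (AT3G44880), successive steps of the pathway, were 3.93-fold (adjusted p = 0.00011) and 2.24-fold (adjusted p = 3.65e-08) higher. RCCR (AT4G37000), the step after them, was 4.3-fold lower (adjusted p = 0.000646).

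Of 16 tested antioxidant enzymes 8 were higher and 1 lower (median 0.61). Cytosolic superoxide dismutase CSD1 (AT1G08830) had 136, 108 and 116 CPM in re-watered leaves and 45.8, 39.3 and 32.7 CPM in day 12 leaves, 3.05-fold higher (adjusted p = 8.71e-09). Ascorbate peroxidase APX1 (AT1G07890) had 521, 379 and 415 CPM in re-watered leaves and 146, 167 and 179.9 CPM in day 12 leaves, 2.67-fold higher (adjusted p = 9.20e-07), and glutathione reductase GR1 (AT3G24170) was 2.04-fold higher (adjusted p = 6.68e-07). Catalase CAT2 (AT4G35090) had 6998, 5536 and 5914 CPM in re-watered leaves and 2620, 5112 and 1637 CPM in day 12 leaves. Day 12 replicate 2 lay close to the re-watered range, and the 1.97-fold increase (adjusted p = 0.00487) was not called in a fit of the groups compared alone. MDAR1 (AT3G52880), which recycles ascorbate, was 1.67-fold lower (adjusted p = 1.09e-05).

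Few clock loci changed, 2 higher and 3 lower of 22 tested. ELF4 (AT2G40080), an evening gene, had 9.27, 8.5 and 9.52 CPM in re-watered leaves and 0.259, 1.93 and 1.44 CPM in day 12 leaves, 7.27-fold higher (adjusted p = 9.85e-07). TOC1 (AT5G61380), also an evening gene, had 82, 89.6 and 85.2 CPM in re-watered leaves and 168, 159 and 159 CPM in day 12 leaves, 1.89-fold lower (adjusted p = 2.23e-05), and LNK1 (AT5G64170) was 3.97-fold lower (adjusted p = 1.49e-06). The morning gene LHY (AT1G01060) had 121, 124 and 154 CPM in re-watered leaves and 127, 149 and 158 CPM in day 12 leaves, which overlapped (adjusted p = 0.633).

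Of 16 tested nitrogen loci 5 were higher and 3 lower, and 2 were higher without re-watered replicate 3. The nitrate transporter NRT1.1 (AT1G12110) had 36.7, 32.5 and 37.3 CPM in re-watered leaves and 11.5, 8.67 and 11 CPM in day 12 leaves, 3.4-fold higher (adjusted p = 1.03e-08). The transporter locus AT3G21670, of the same major facilitator superfamily and outside the list, had 774, 591 and 778 CPM in re-watered leaves and 35.1, 54.5 and 25.1 CPM in day 12 leaves, 18.7-fold higher (adjusted p = 2.86e-08). The transcription factors LBD38 (AT3G49940) and LBD39 (AT4G37540), which repress nitrogen genes in Arabidopsis, were 4.87-fold (adjusted p = 0.00168) and 5.86-fold (adjusted p = 7.10e-05) lower.

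Aquaporins, the water channels of membranes, were higher at 6 and lower at 1 of 12 tested loci (median 0.51), with 3 higher without day 12 replicate 2 or without re-watered replicate 1. PIP2;2 (AT2G37170) of the plasma membrane and TIP4;1 (AT2G25810) of the tonoplast had 264, 243 and 234 CPM and 17.5, 11 and 9.64 CPM in re-watered leaves and 128, 87 and 116 CPM and 2.98, 3.61 and 3.07 CPM in day 12 leaves. They were 2.24-fold (adjusted p = 0.000374) and 3.93-fold (adjusted p = 1.97e-05) higher. PIP2;8 (AT2G16850) was the lower one, with 203, 172 and 198 CPM in re-watered leaves and 504, 384 and 421 CPM in day 12 leaves (2.29-fold, adjusted p = 4.00e-05).

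Heat shock and chaperone loci were split, 7 higher and 3 lower of 20 tested, with 1 lower without day 12 replicate 1 or 2 or re-watered replicate 2 or 3. HSP101 (AT1G74310), a disaggregase, and HOP3 (AT4G12400), a co-chaperone, were 11.2-fold (adjusted p = 1.31e-07) and 5.63-fold (adjusted p = 6.00e-10) higher. The heat stress factor HSFA2 (AT2G26150) was lower, with 5.67, 4.55 and 4.33 CPM in re-watered leaves and 44.9, 46.7 and 33.9 CPM in day 12 leaves (8.6-fold, adjusted p = 1.35e-11). Of 261 tested loci described as ribosomal proteins, 3 were higher and 67 lower, with a median of -0.37. The number lower was 40 without day 12 replicate 1, 37 without re-watered replicate 2, 30 without re-watered replicate 3 and 113 in a fit of the groups compared alone. AT1G07830 and AT4G23620, named for their small adjusted p, were 2.55-fold (adjusted p = 2.55e-07) and 2.58-fold (adjusted p = 3.70e-07) lower.

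The assembly also held contigs with no Arabidopsis match, which the locus table does not cover. These were 3483 of 39781 contigs, and they took 3.86% of the authors' mean RPM in re-watered leaves and 3.03% in day 12 leaves at midnight. Of the 110 that reached 50 RPM in either group, 17 were at least 4 times higher in re-watered leaves and 15 at least 4 times higher in day 12 leaves. The authors' means carry no error here and no test was made. Contig Tt26996, annotated from sugar beet as a homologue of a jasmonate-induced protein, had 12435 RPM in re-watered leaves, 780.7 RPM in day 12 leaves and 10227 RPM in day 0 leaves. Other contigs with that annotation ran the opposite way. Tt20536 had 74.7 RPM in re-watered leaves, 843.3 RPM in day 12 leaves and 8.67 RPM in day 0 leaves, and Tt25208_2 had 129 RPM in re-watered leaves, 769.3 RPM in day 12 leaves and 20 RPM in day 0 leaves. Contig Tt22884_2, annotated as the homeobox protein ATHB-12, had 1.67 RPM in re-watered leaves, 79 RPM in day 12 leaves and 0.333 RPM in day 0 leaves. Contig Tt22416, a predicted protein of unknown function, had 520.7 RPM in re-watered leaves, 4094 RPM in day 12 leaves and 11.3 RPM in day 0 leaves, so its re-watered value lay above that of day 0. Contig names are those of the authors' assembly.

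Leaves of both conditions were also sampled at midday, which asks whether the response at midnight depended on the hour. The midday comparison shares no library with the midnight one. At midday 6702 loci (47.7%) differed between re-watered and day 12 leaves, 3220 (22.9%) higher and 3482 (24.8%) lower. Which direction held more loci depended on the scaling, with 3506 higher and 3020 lower with RLE size factors, 3640 and 2824 with upper quartile scaling, 3481 and 2999 in DESeq2 and 3023 and 2470 in a fit of the groups compared alone. Of the loci higher at midnight, 1776 (56.7%) were also higher at midday, where they made up 55.2% of the higher loci. Of those lower at midnight, 1358 (46.9%) were also lower at midday, 39% of the loci lower there. 260 loci were higher at midnight and lower at midday, and 162 were lower at midnight and higher at midday. The interaction of condition and hour was past the threshold at 3707 loci (26.4%), 1962 (14%) with the more positive change at midnight and 1745 (12.4%) with the more positive change at midday, a division that turned to 1711 and 2018 with RLE size factors. Re-watered midday replicate 3 correlated less well with its group than the other re-watered midday libraries did. Without it 3754 loci passed.

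Within the CAM list no difference between the hours passed the threshold at the carboxylation step. PPC1 had 568, 423 and 392 CPM in re-watered leaves and 8158, 6094 and 7518 CPM in day 12 leaves at midday, a log2 change of -3.98 beside -4.48 at midnight (difference -0.5, adjusted p = 0.401). For PPCK1 and PPDK the changes at midday were -2.54 and -2.43, with differences of -0.26 (SE 0.31) and -0.11 (SE 0.51) from those at midnight (adjusted p = 0.578 and 0.904). For the pyruvate transporter BASS2 the hours differed. At midday it had 163, 114 and 90.3 CPM in re-watered leaves and 136, 144 and 127 CPM in day 12 leaves, which overlapped (log2 -0.15), and the difference from midnight was -2.01 (adjusted p = 8.76e-06). NADP-ME4 ran the opposite way, with a larger decrease at midday (log2 -1.54, difference 1.05, adjusted p = 0.00138). The dicarboxylate carriers changed sign. DIC3 had 78, 112 and 89.6 CPM in re-watered leaves and 302, 365 and 352 CPM in day 12 leaves at midday, lower after re-watering (log2 -1.86, adjusted p = 3.39e-07), and higher at midnight (difference 4.5, adjusted p = 3.80e-06, and 5.14 without day 12 midnight replicate 1).

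AMY3 and the phosphofructokinase loci fell further at midnight than at midday. AMY3 had 186, 220.1 and 219.8 CPM in re-watered leaves and 324, 258 and 325 CPM in day 12 leaves at midday (log2 -0.53, adjusted p = 0.019), with a difference of -2.0 from midnight (adjusted p = 3.83e-06). PFK3 had 28.5, 30.2 and 36.6 CPM in re-watered leaves and 36.9, 42.8 and 38.3 CPM in day 12 leaves at midday, where it was not called (adjusted p = 0.242), with a difference of -3.02 from midnight (adjusted p = 6.94e-08). The differences at PFK1, PFK4 and PFK6 were -3.03, -3.33 and -2.99, and the midday decrease was called at PFK6 (log2 -0.76, adjusted p = 0.018). SS1 and GWD1 had the larger decrease at midday, with log2 changes of -3.9 and -2.02 there and differences of 1.67 and 1.5 (adjusted p = 0.00771 and 0.00215). That of SS1 was 2.32 without re-watered midday replicate 3. As for AMY3, the decrease was larger at midnight at the kinases of ABA signalling, SNRK2.2 and OST1, with midday changes of 0.08 and 0.18 that were not called and differences of -1.8 and -1.61 (adjusted p = 7.76e-07 and 1.92e-06).

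ProDH1, of proline breakdown, was called at midnight and P5CS1, of proline synthesis, at midday. ProDH1 had 6.95, 25 and 39.6 CPM in re-watered leaves and 24.8, 17.3 and 24.6 CPM in day 12 leaves at midday, which overlapped (adjusted p = 0.889), and the difference from midnight was -3.28 (adjusted p = 0.00833). P5CS1 had 262, 221 and 186 CPM in re-watered leaves and 2169, 2015 and 1986 CPM in day 12 leaves at midday, 9.23-fold lower (adjusted p = 4.77e-12), a difference of 2.94 from midnight (adjusted p = 8.59e-08). ELIP1 (AT3G22840), an early light-induced protein that binds pigments under stress, had 13.2, 20.1 and 54.2 CPM in re-watered leaves and 4302, 5274 and 3702 CPM in day 12 leaves at midday, 150-fold lower (adjusted p = 1.36e-08). At midnight it had 8.24, 13.8 and 11.6 CPM in re-watered leaves and 6.21, 29.6 and 10.9 CPM in day 12 leaves, with overlap. Its difference between hours was 6.76 (adjusted p = 5.66e-06), or 7.61 without day 12 midnight replicate 2 and 7.58 without re-watered midday replicate 3.

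At midday most expansin and aquaporin loci rose. Of 15 expansins 13 were higher and 1 lower at midday, and 10 had a more positive change at midday than at midnight. EXPA14 and EXPA15, lower at midnight, had midday log2 changes of 2.16 (adjusted p = 0.0602) and 3.21 (adjusted p = 0.000464), with differences of -4.84 and -4.51 (adjusted p = 0.000985 and 0.000138). Without re-watered midday replicate 1 those differences were -3.3 and -3.69, and without re-watered midday replicate 3 that of EXPA14 was -5.46. Of 12 aquaporins 10 were higher and none lower at midday, and 8 had the more positive change there. Cell cycle loci were higher at 16 of 22 and lower at none at midday, with 6 called differences, all toward midday. In the photosystem list 14 of 24 were higher and none lower at midday, and 10 differed between hours. LHCB5 had 11940, 8937 and 3487 CPM in re-watered leaves and 3789, 4856 and 3621 CPM in day 12 leaves at midday, against far lower levels at night, and its difference was -2.97 (adjusted p = 0.000183). Re-watered midday replicate 3 was the low value of its group there. RCCR showed the same pattern, with 139.9, 79 and 21.1 CPM in re-watered leaves and 19.9, 18.7 and 24.8 CPM in day 12 leaves at midday and a difference of -4.01 (adjusted p = 6.39e-05). Both differences were still called without that library, and that of RCCR was -3.34 without re-watered midday replicate 1. The opposite pattern, a more positive change at midnight, was found at the amine oxidase AT3G43670 and at AT1G06460, of the alpha-crystallin family, with differences of 5.62 and 5.76 (adjusted p = 0.000106 and 6.76e-05). That of AT1G06460 was 6.82 without re-watered midday replicate 3. The transporter loci AT5G62730 and AT1G27040 and gibberellin 2-oxidase 1 (AT1G78440), which inactivates gibberellin, had differences of -7.72, -7.59 and -6.22 (adjusted p = 1.82e-06, 1.49e-06 and 0.0188). That of AT1G78440 was not called without day 12 midnight replicate 3 (adjusted p = 0.218), and without day 12 midday replicate 2 those of AT5G62730 and AT1G27040 were -8.34 and -8.78.

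**Figure D4:**
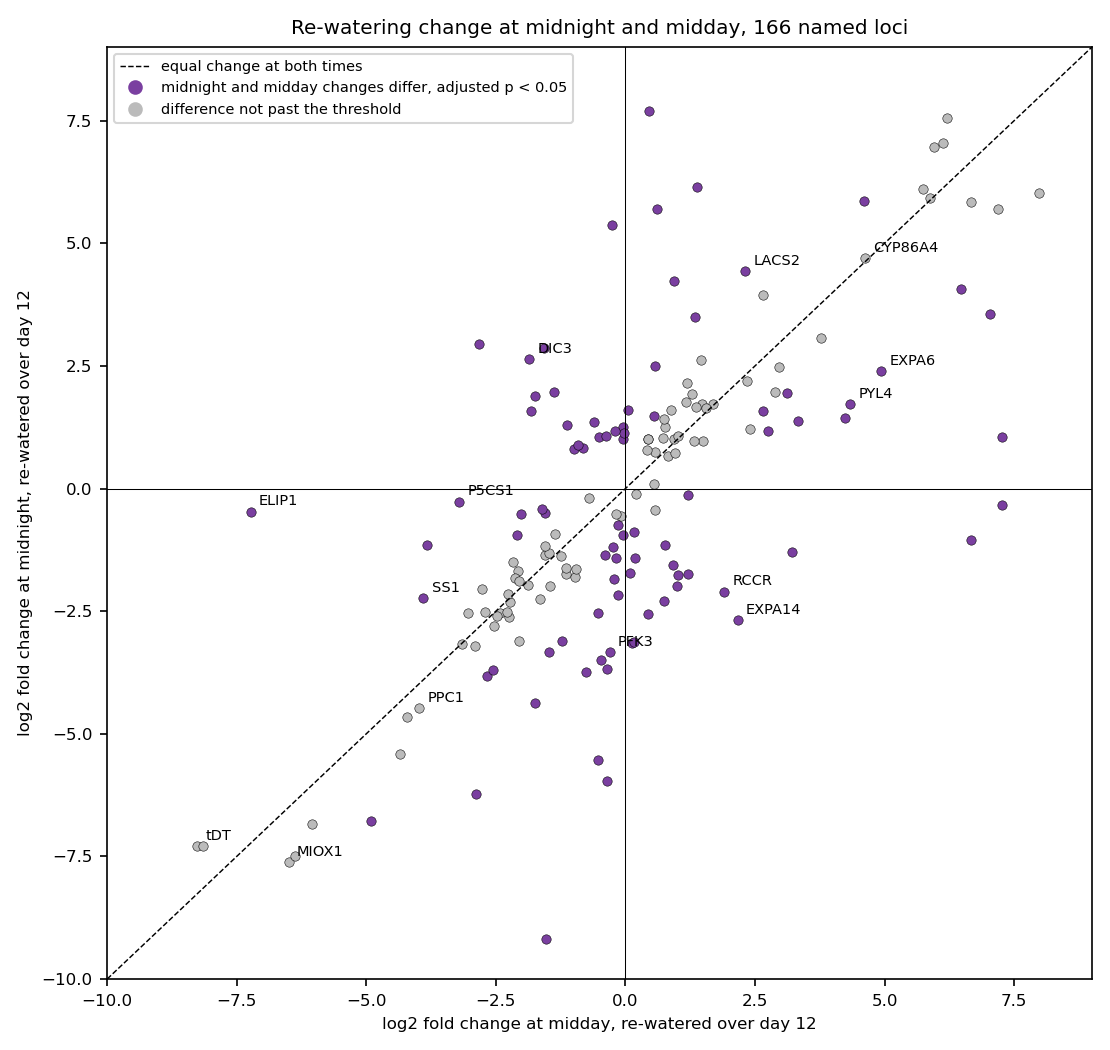
Log2 fold change of re-watered over day 12 leaves at midnight (vertical) against midday (horizontal) for 166 named loci. Purple points are the 86 loci whose changes at both times differed at an adjusted p under 0.05, grey points did not pass, and the dashed line marks equal change. PPC1, MIOX1, tDT and CYP86A4 are grey, and ELIP1, DIC3, PFK3 and EXPA14 are purple and lie away from the line.

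**Figure D5:**
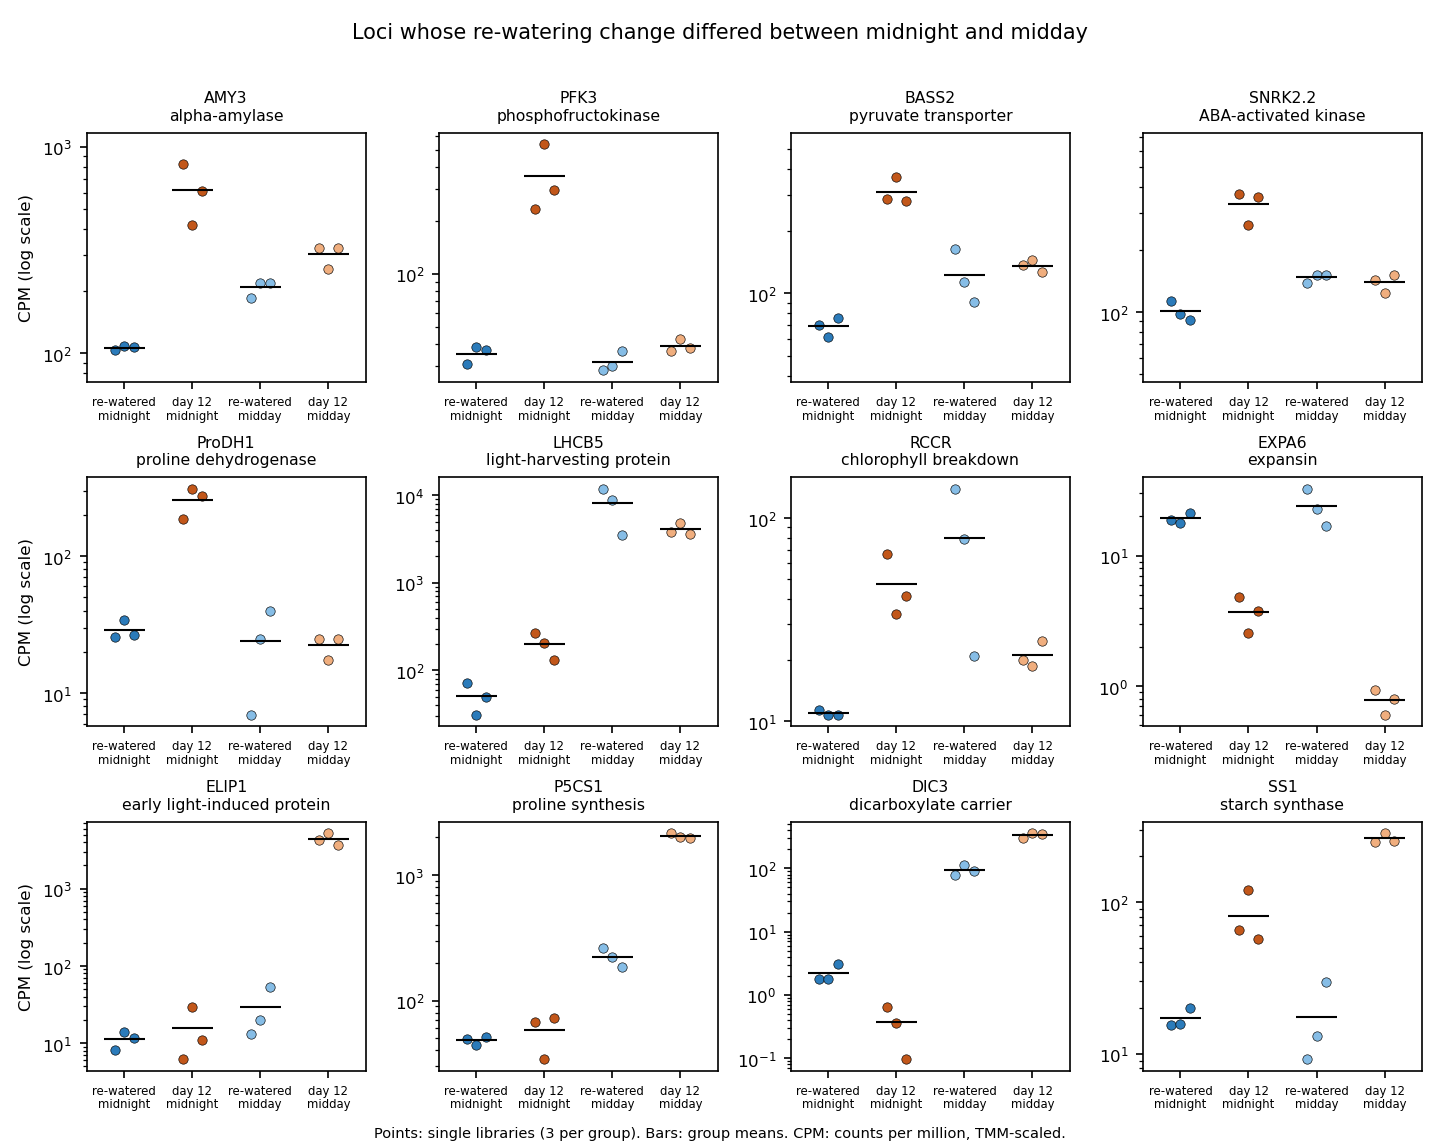
CPM on a log scale of 12 loci whose change differed between the hours, in each library of re-watered and day 12 leaves at midnight (left pair) and at midday (right pair), with 3 points per group and a bar at the mean. PFK3, BASS2, SNRK2.2 and ProDH1 passed the test at midnight and not at midday, ELIP1 and P5CS1 at midday and not at midnight, and in LHCB5 and RCCR re-watered midday replicate 3 is the lowest of its group.

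Day 0 leaves give the level before drought. The comparisons share libraries, so they are given side by side. Between re-watered and day 0 leaves at midnight 2757 loci (19.6%) differed, 1163 (8.28%) higher and 1594 (11.3%) lower in re-watered leaves, and 804 of them had a fold change of at least 2. The count was 1630 without day 0 replicate 2, 1684, 1706 and 1750 without re-watered replicates 1, 2 and 3, and 1359 in a fit of the groups compared alone. Between day 12 and day 0 leaves 8091 loci (57.6%) differed, 3904 (27.8%) higher and 4187 (29.8%) lower in day 12 leaves. PPC1 had 623, 704 and 511 CPM in re-watered leaves and 572, 348 and 565 CPM in day 0 leaves, a log2 change of 0.31 (SE 0.3, adjusted p = 0.496). PPCK1 and PPDK had log2 changes of 0.01 (SE 0.22) and 0.38 (SE 0.36) over day 0 that did not pass, beside 2.8 and 2.91 for day 12 over day 0. The 4 phosphofructokinase loci had log2 changes of -0.09 to 0.13 over day 0, and CYP86A4, LACS2 and GPAT6 changes of -0.39 to -0.15. None of these passed the threshold against day 0.

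Other named loci differed between re-watered and day 0 leaves. PPT1 and PPT2 had log2 changes of -0.86 (adjusted p = 0.000941) and -1.24 (adjusted p = 6.57e-05) against day 0, beside -1.88 and -3.16 for day 12 against day 0. MEX1 had 30.3, 22.4 and 27.8 CPM in re-watered leaves and 69.2, 65.3 and 120 CPM in day 0 leaves (log2 -1.66, adjusted p = 3.64e-06). PPH and LHCB5 had log2 changes of -2.29 and -2.96 against day 0 (adjusted p = 1.15e-05 and 2.55e-05). GR1 and CSD1 were lower than on day 0 as well, with log2 changes of -0.84 and -0.9 (adjusted p = 0.000116 and 0.000389). NAD-ME1 had 85.5, 97.5 and 95.2 CPM in re-watered leaves and 129, 136 and 146 CPM in day 0 leaves, lower than before drought (log2 -0.56, adjusted p = 0.00191), while day 12 and day 0 leaves differed by -0.05. Ferric reduction oxidase 6 (AT5G49730), AT5G48000 and PYL4 were higher than on day 0, with log2 changes of 1.12, 3.19 and 1.16 (adjusted p = 0.000461, 0.00666 and 0.0103).

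The midnight series before re-watering gives the levels from which the re-watered leaves had come. PPC1 averaged 495 ± 127 CPM on day 0, 628 ± 246 on day 4, 14250 ± 992 on day 9, 13670 ± 2074 on day 12 and 613 ± 96.7 after re-watering (SD, n = 3 each). PPCK1 averaged 52.5 ± 10.6, 72.3 ± 13.7, 312 ± 77.1, 366 ± 15 and 52.7 ± 9.36 CPM over the same series, and MIOX1 1.19 ± 0.305, 1.32 ± 0.969, 16.7 ± 5.29, 100.5 ± 24.7 and 0.494 ± 0.117 CPM. LACS2 ran the other way, with 148 ± 8.82, 133 ± 10.9, 8.31 ± 1.6, 6.13 ± 0.869 and 133 ± 21.4 CPM, and CYP86A4 with 200.2 ± 60.6, 137 ± 11.5, 10.4 ± 2.97, 5.93 ± 1.2 and 152 ± 13.3 CPM. In each of these 5 loci the re-watered mean was nearer to that of day 0 than to that of day 12.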

How the data were processed

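Per the labels' protocols, RNA of mature leaf was made into TruSeq v2 libraries and sequenced single-end on a HiSeq instrument. CASAVA 1.8.2 is named in the submitters' processing notes. The deposited count of reads per locus rests on BLAT matches in protein space to a minimal TAIR10 protein set, per the file headers. The deposited contig values are scores, namely RPM (the count scaled to the library total) that the authors rounded and averaged over replicates, per the file headers and the values. The DESeq2 version is not given in the sources used here, and 30 columns of per-sample RPM and 6 paired-end libraries were not used.

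The counts of 30 libraries (10 groups of 3) were fitted as deposited with edgeR 4.0.16 in R 4.3.3 (filterByExpr, TMM, robust quasi-likelihood, 20 residual degrees of freedom, biological coefficient of variation 0.173). Of 21869 loci 14052 (64.3%) passed the filter on low counts. P-values were adjusted by Benjamini-Hochberg over all of them, and an adjusted p under 0.05 was called. The SE is the size of the log2 change over the root of F. Counting intervals (95%) and floors of 3 reads cover counting error only. The test was tested on simulated counts. DESeq2 1.42.0, limma 3.58.1, other scalings, filters, a replicate block and leaving out libraries were alternatives. Re-watered midday replicate 3 and day 0 midnight replicate 3 correlated least with their groups.

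Named loci are the 15 largest increases and decreases with a group mean of at least 10 CPM and no overlap, the 10 largest gains and losses of CPM, every called CAM list member, 4 called members per direction of each other list and the 5 largest interactions of each sign; not every one is printed, and 1 is not reported here. The members and lists were chosen with earlier results of these data known. Symbols are the usual Arabidopsis names of the locus codes. Replicates are called biological in the headers. The p-values weigh each change against a spread between replicate libraries that was estimated over all 30 libraries of the fit.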

Additional observations from a re-analysis of the deposited data

Results flagged for a closer look

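The change between re-watered and day 12 leaves differed between midnight and midday at 3707 loci, tested as the interaction of condition and hour in edgeR over all 14052 loci. Of the 166 loci chosen for description, 86 passed, and for 18 of them the change was called in opposite directions at both hours. The values below are the log2 change at midnight minus the log2 change at midday.

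Lower in re-watered leaves at midnight and higher at midday were EXPA15 (-4.51), RCCR (-4.01), LHCB5 (-2.97), PORB (-2.95), CAO (-2.78), PORC (-2.48) and AUR2 (-1.93). Higher at midnight and lower at midday were the dicarboxylate carriers DIC1 (3.41), DIC2 (3.63) and DIC3 (4.5), plNAD-MDH (1.65), MEX1 (1.56), ISA3 (1.8), PPH (3.35), ABCG11 (1.96), AT2G26080 (1.81), AT5G49730 (2.42) and AT1G06460 (5.76).

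Lower at midnight with no call at midday were the phosphofructokinases PFK1 (-3.03), PFK3 (-3.02) and PFK4 (-3.33), the proline dehydrogenases ProDH1 (-3.28) and ProDH2 (-3.3), the ABA kinases SNRK2.2 (-1.8) and OST1 (-1.61) and the nitrogen regulators LBD38 (-3.02) and LBD39 (-2.99). So were BASS2 (-2.01), ALMT6 (-0.91), GBSS1 (-1.06), SUS3 (-1.23), EXPA14 (-4.84), RNR2A (-1.63), PIP2;8 (-0.94), MDAR1 (-0.6), AT1G07830 (-0.96), AT3G02040 (-5.0) and AT5G41080 (-5.61). Higher at midnight with no call at midday were RP1 (1.07), SPS1 (1.32), SPSB (1.16), NP-GAPDH (1.44), PAO (1.36), CSD1 (1.55), ELF4 (4.43), AT4G04955 (4.77), AT1G78490 (5.1), AT3G43670 (5.62) and AT5G48000 (7.23).

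Called at midday alone were GWD1 (1.5), P5CS1 (2.94) and ELIP1 (6.76), lower in re-watered leaves, and RCA (-1.33), AT1G78440 (-6.22), AT1G27040 (-7.59) and AT5G62730 (-7.72), higher in re-watered leaves. At midnight P5CS1 was also called lower without day 12 midnight replicate 2 (adjusted p = 0.0233), and GWD1 and AT5G62730 were called lower in a fit of the groups compared alone (adjusted p = 0.00436 and 0.0247). The remaining loci were called in the same direction at both hours and differed in size. Those lower at both were AT5G50360 (-7.64), AT3G48510 (-3.35), PFK6 (-2.99), AT1G29900 (-2.64), AMY3 (-2.0), HSFA2 (-1.88), BAM9 (-1.87), AT3G27250 (-1.87), AT2G23900 (-1.15), AT3G48950 (-1.14), NADP-ME4 (1.05), CER3 (1.15), NADP-ME2 (1.2), SS1 (1.67) and COR47 (2.69). Those higher at both were AT4G21960 (-3.48), CYCB1;4 (-2.8), PYL4 (-2.61), EXPA6 (-2.54), AT3G53190 (-2.39), PYR1 (-1.95), PIP2;2 (-1.59), SHN1 (-1.17), AT5G23860 (-1.06), ASP5 (0.92), AT2G35860 (1.25), HOP3 (1.92), LACS2 (2.12), HSP101 (2.15) and AT3G21670 (3.29). When each of the 12 libraries was left out in turn, 77 of the 86 differences were called every time, and the other 9 (SUS3, SHN1, RCA, AT4G04955, AT2G35860, AT3G53190, PIP2;8, AT1G78440 and AT3G27250) lost the call at least once. AT5G50360 had no read in the re-watered midnight libraries, so its fitted difference depends on the prior count and is no bound. Leaving out re-watered midday replicate 3 moved 11 of the 86 differences by more than 1.5 times, re-watered midday replicate 1 moved 8, day 12 midday replicate 2 moved 6, day 12 midnight replicate 2 moved 4 and day 12 midnight replicate 3 moved 3, and 0 changed sign.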

How the results depend on the processing

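With leave-outs meaning each library of the groups in turn, and re-watered midday replicate 3 with day 0 midnight replicate 3 together, the count of 6027 loci was 2682 with a log2 change of at least 1 required as well, and 4962 to 6417 under leave-outs. The interaction count of 3707 was 2137 at an adjusted p under 0.01, 2200 with a log2 difference of at least 1, and 3134 to 3984 under leave-outs. Against day 0, the 2757 loci became 1133 at an adjusted p under 0.01, 804 with a log2 change of at least 1, 1359 in a fit of the groups compared alone, and 1630 to 2899 under leave-outs. Day 12 against day 0 gave 3983 and the midday comparison 3296 with a log2 change of at least 1, and 7260 to 7838 and 5791 to 6360 under leave-outs. The 204 called list members became 178 to 231 under leave-outs. The causes of these changes were not tested. Scaling, DESeq2, limma and the filters on low counts kept each of these counts within 1.5 times. Of 2819 values for the 166 named loci under all alternatives, 2776 kept their side of the threshold, 39 lost the call, 4 gained it and 0 changed direction with a call. Without a call, ELIP1 (0.37 without day 12 replicate 2) and RBCS1A (-0.11 without day 12 replicate 3, -0.018 without re-watered replicate 1) changed sign. Loci of few reads limit the fold changes, as their values against groups near 0 show. Replicate numbers were not taken as pairs, since the deviations of same-numbered re-watered and day 12 midnight libraries correlated at 0.176, 0.071 and 0.114. With the replicate number as a block 5956 loci were called, 3654 for the interaction, 2727 against day 0, 8033 for day 12 against day 0, 6642 at midday and 204 list members. Each of the 6 midnight libraries correlated best with its own number, a hint from the data and not from the design.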
